A study of Sus scrofa with 12 samples.

Results

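The matrix proteases described here were the matrix metalloproteinases (MMPs) and the ADAMTS proteases, together with their tissue inhibitors, the TIMPs. The genes were taken by symbol from the gene table, as every MMP with a number, every ADAMTS with a number, and TIMP1 to TIMP4. The rule found 43 of the 29884 genes in the table, of which 20 were MMPs, 19 were ADAMTS genes and 4 were TIMPs.

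The study compared ovaries of sows with small litters (SLS) and large litters (LLS). Per the labels and methods, sows of a commercial piggery were slaughtered 4 days after delivery number 4 and the left ovary was taken, and the gene table holds 3 SLS ovaries, named ZD2, ZD3 and ZD12, and 3 LLS ovaries, named ZD5, ZD7 and ZD8. Litter size was 8.48 ± 0.53 piglets in the SLS group and 16.19 ± 0.43 piglets in the LLS group per the design text, which does not name the error. The study's methods state that results are given as mean ± SEM. The sows carried no named allele or treatment, and each library was made from 1 ovary after removal of ribosomal RNA, with the strand marked. Whether the whole ovary or a piece was used is not given in the sources used here. P-values therefore measure the spread between single ovaries, whose shares of luteal, follicular and stromal tissue may differ, and fewer cells of a type cannot be told apart from less RNA per cell.

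MMPs are zinc-dependent enzymes that cut collagens, gelatin, proteoglycans and other proteins of the extracellular matrix, and most are secreted as inactive proforms. ADAMTS proteases are secreted relatives that bind the matrix through thrombospondin repeats and cut proteoglycans, procollagens and von Willebrand factor. TIMPs bind the active site of MMPs and block it, and TIMP3 also inhibits ADAMTS proteases. In the ovary, proteases and inhibitors are known for their part in follicle rupture, in formation of the corpus luteum and in its regression.

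Values are FPKM, fragments scaled by transcript length and library size, in which the deposited table divides by the longest annotated transcript of each gene. Sequencing depth was between 32272803 reads in ZD8 and 60903268 reads in ZD2, and 3 reads of a member correspond to at most 0.130 FPKM (TIMP1 in ZD8). ZD8 stood apart from the other 5 ovaries, with 13908 genes at 1 FPKM or more against 11832 to 12531. All 6 of the luteal cell markers on the list used here (STAR, CYP11A1, HSD3B1, SCARB1, LHCGR and PTGFR) were below every other ovary in ZD8. Their summed level was 123 FPKM in ZD8, between 9167 and 10808 FPKM in the SLS ovaries and up to 12191 FPKM in the LLS ovaries. The 4 theca markers summed to 468 FPKM in ZD8 against 21.1 to 92.7 FPKM elsewhere, and the 6 oocyte markers to 124 against 6.47 to 22.7 FPKM. Of the theca markers, CYP17A1, INSL3 and TCF21 were highest in ZD8. HSD17B2 was not, at 0.0531 FPKM in ZD8 and 0.0141 to 1.41 FPKM elsewhere. Of the genes used to check the tissue, FOXL2, NR5A1, GDF9 and ZP3 were highest in ZD8, and STAR was lowest there. ZD8 thus held far less of the luteal RNA found in the other ovaries, and whether it was collected at the labelled time was not tested. Counts of members between the groups and the fold changes of the 4 TIMPs and MMP11 are therefore given with and without it.

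MMP genes spanned a wide range of levels, and the genes of a cluster on chromosome 9 were at its low end. On Sscrofa11.1, 8 MMP genes (MMP7, MMP20, MMP27, MMP8, MMP1, MMP3, MMP12 and MMP13) lie within 402111 bases, at chr9:33214590-33616700, and none exceeded 3.39 FPKM in any ovary. The 12 other MMPs lie outside this cluster, and 9 of them had at least 1 FPKM in at least 3 ovaries, the filter for testing. The stretches of 250 bases before the annotated start of MMP3 (in the cluster) and of MMP2 and MMP14 (the most abundant MMPs) show how the bases before the genes differ. Capitals mark the letters TATAAA, the letters GGGCGG or the letters TGANTCA (N is any base) on either strand, in sequence read from the RefSeq genome of that build, and all 3 genes are on the minus strand.
MMP3, chr9:33453996-33454245, minus strand: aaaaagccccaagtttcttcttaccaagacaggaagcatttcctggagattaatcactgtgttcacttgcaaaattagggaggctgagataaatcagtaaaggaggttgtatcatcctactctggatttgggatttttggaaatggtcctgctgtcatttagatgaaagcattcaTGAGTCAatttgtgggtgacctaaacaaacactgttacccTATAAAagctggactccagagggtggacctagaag
MMP2, chr6:30087032-30087281, minus strand: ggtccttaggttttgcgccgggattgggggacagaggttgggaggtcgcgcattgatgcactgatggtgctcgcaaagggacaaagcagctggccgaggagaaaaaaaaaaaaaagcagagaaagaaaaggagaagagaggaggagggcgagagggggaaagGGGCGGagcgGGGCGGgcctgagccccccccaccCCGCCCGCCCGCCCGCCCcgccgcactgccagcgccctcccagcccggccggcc
MMP14, chr7:76185932-76186181, minus strand: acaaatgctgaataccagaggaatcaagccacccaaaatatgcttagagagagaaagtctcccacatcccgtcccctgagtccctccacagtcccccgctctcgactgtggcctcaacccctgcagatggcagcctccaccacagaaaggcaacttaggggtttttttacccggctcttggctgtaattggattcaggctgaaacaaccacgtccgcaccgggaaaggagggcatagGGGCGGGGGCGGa

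The letters TATAAA, the core of a TATA box, were found before 6 of the 8 cluster genes, 2 of the 12 other MMPs, 1 of the 19 ADAMTS genes and 0 of the 4 TIMPs, against 10.4% of the 20639 protein-coding genes. The letters GGGCGG, which Sp1 is known to bind, were found before 0 of the 8 cluster genes, 9 of the 12 other MMPs, 8 ADAMTS genes and 2 TIMPs, against 44.5% of all genes. TGANTCA, the form of site known for AP-1, was found before 3 cluster genes, 2 other MMPs, 0 ADAMTS genes and 1 TIMP, against 5.5% of all genes. The median share of G and C was 40.6% before the cluster genes, 56.0% before the other MMPs, 67.6% before ADAMTS genes and 65.2% before TIMPs, with 57.2% over all genes. The 3 sets of letters do not overlap each other, and a match is a description of the bases and not a measured site.

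Summed over the family, the inhibitors were far more abundant than the proteases in 5 of the 6 ovaries, through TIMP1. TIMP1, a secreted inhibitor of most MMPs, is on the plus strand at chrX:42103251-42106289, inside the span of SYN1, which is on the other strand. It had 7778, 5345 and 5179 FPKM in the SLS ovaries and 7110, 8556 and 126 FPKM in the LLS ovaries, in the order named above, which holds for all values below. In ZD7 it was the gene with the highest FPKM of the table, and in ZD2, ZD3, ZD12 and ZD5 it ranked 2, 4, 3 and 3. In ZD8 it ranked 272, and the lowest of the other 5 ovaries was 41.2 times higher. Only 56 of the 12260 tested genes had a larger ratio of this kind. In reads, these were 2908 in ZD8 and between 196229 and 372999 in the other ovaries, so that depth does not limit the value. SYN1 had at most 1.20 FPKM in any ovary.

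The group means of TIMP1 were 6101 ± 1455 FPKM in SLS and 5264 ± 4508 FPKM in LLS (SD, n = 3 each), and the groups overlapped. The log2 fold change, LLS against SLS, was -1.60 with a standard error of 1.65 in units of log2(FPKM + 1), where changes of genes with few reads appear smaller than they are (adjusted p = 0.999, limma). On recovered reads it was -0.12 with DESeq2 and -0.11 with edgeR. Without ZD8 the sign turned, to 0.38 (adjusted p = 0.9996, limma). ZD8 was below the other 5 ovaries for TIMP1, for the luteal markers given above and for 26.3% of all tested genes. The part of luteal or other cells in the low TIMP1 of ZD8 was not tested.

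TIMP2 blocks MMPs and also, bound to MMP14 on the cell surface, holds the proform of MMP2 in place for activation. Its levels were 324, 254 and 429 FPKM in the SLS ovaries and 301, 357 and 367 FPKM in the LLS ovaries. ZD8 lay within the range of the others, and the log2 fold change was 0.05 with a standard error of 0.40 (adjusted p = 0.999, limma). Its sign turned without ZD8 (-0.00072) and without ZD3 (-0.13). TIMP3, which stays bound to the matrix and also inhibits ADAMTS proteases, had 105, 116 and 91.9 FPKM in SLS and 93.5, 82.0 and 123 FPKM in LLS. Its highest value was in ZD8 and the groups overlapped, with a log2 fold change of -0.08 and a standard error of 0.30 (adjusted p = 0.999, limma). The log2 fold change of TIMP3 was -0.24 without ZD8, and its sign turned without ZD3 or ZD7.

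TIMP4, the least abundant inhibitor, had 2.11, 2.62 and 2.61 FPKM in SLS and 1.76, 1.60 and 6.30 FPKM in LLS. ZD8 was 2.40 times the highest other ovary, whereas the other LLS ovaries were below every SLS ovary. The log2 fold change was 0.12 with a standard error of 0.42 (adjusted p = 0.999, limma), and it was -0.36 without ZD8 (adjusted p = 0.9996, limma). TIMP4 lies within SYN2, which is on the opposite strand and was also highest in ZD8, at 16.8 FPKM against 0.872 to 5.38 FPKM. Whether counting used the strand is not given in the sources used here, so that reads of SYN2 in TIMP4 cannot be told apart from its own. TIMP3 lies in the same way within SYN3, which did not exceed 0.327 FPKM.

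**Figure D1:**
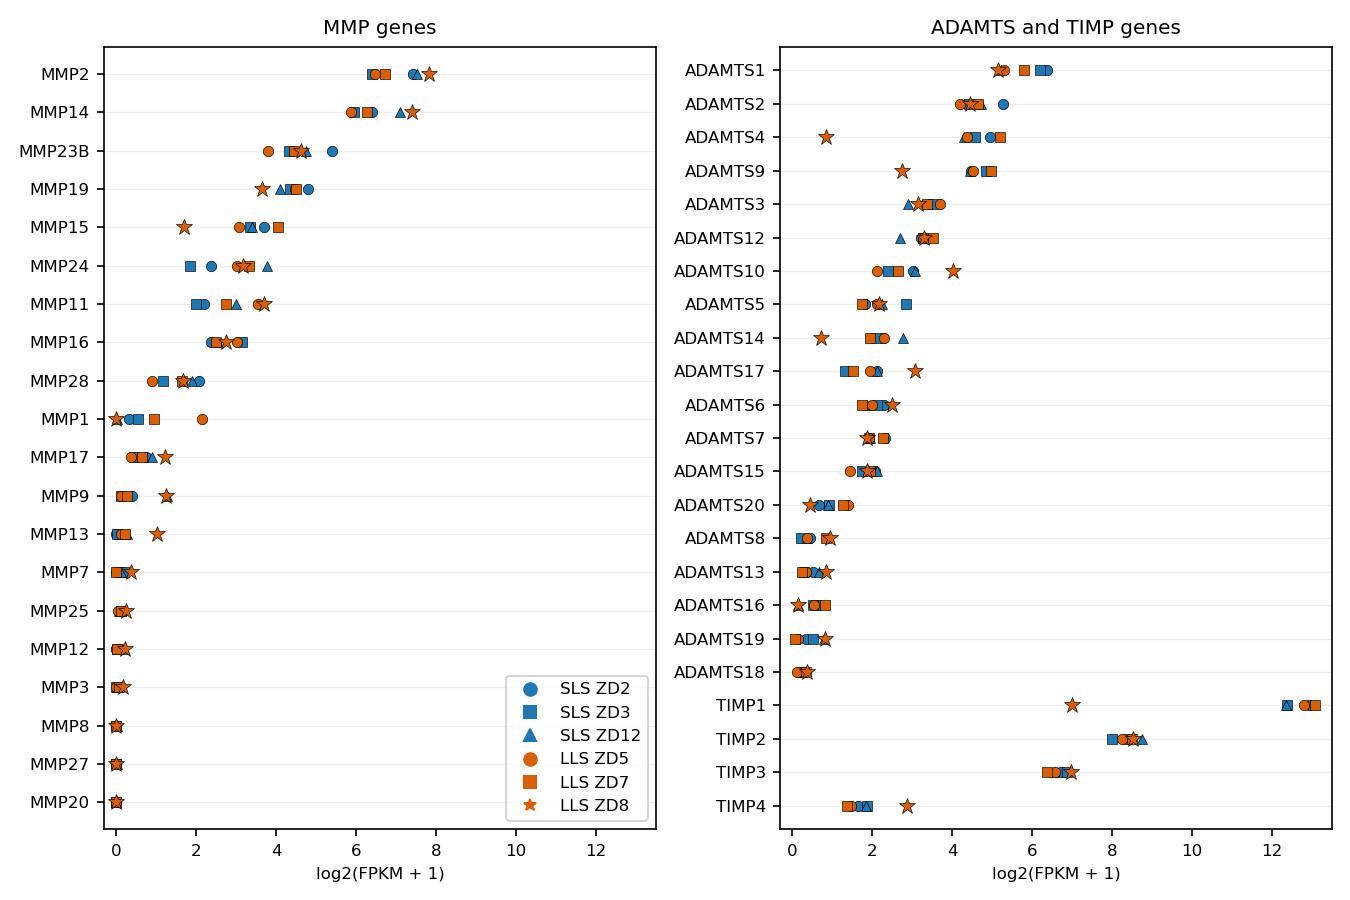
Level of each MMP gene (left) and of each ADAMTS and TIMP gene (right) as log2(FPKM + 1), with 1 symbol per ovary, SLS in blue and LLS in orange. The star of ZD8 lies far left of the other ovaries for TIMP1 (126 FPKM) and ADAMTS4 (0.777 FPKM).

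Among the proteases, MMP2 and MMP14 had the highest means over the 6 ovaries, although ADAMTS1 was above MMP14 in ZD3. MMP2, the gelatinase that cuts denatured collagen and type IV collagen, had 170, 83.2 and 182 FPKM in the SLS ovaries and 87.0, 104 and 224 FPKM in the LLS ovaries. MMP14, the membrane-bound collagenase that activates MMP2, had 83.9, 60.4 and 136 FPKM in SLS and 57.4, 76.5 and 168 FPKM in LLS. Both genes were highest in ZD8 and next highest in ZD12, and the groups overlapped. MMP9, the other gelatinase, did not pass the filter and was also highest in these ovaries, at 1.39 FPKM in ZD12 and 1.37 FPKM in ZD8 against 0.0830 to 0.307 FPKM. MMP2 and MMP14 together made up 67.1% to 84.9% of the summed MMP level. The ratio of MMP2 to TIMP2 was 0.526, 0.328 and 0.426 in SLS and 0.290, 0.290 and 0.610 in LLS, so that the LLS ovaries included both the lowest and the highest values.

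MMP11 is a stromelysin that cuts serpins and basement membrane proteins rather than fibrillar collagen. In the main limma fit it was the only member with an unadjusted p under 0.05. It had 3.57, 2.96 and 6.98 FPKM in the SLS ovaries and 10.6, 5.73 and 11.97 FPKM in the LLS ovaries. ZD5 and ZD8 were above all SLS ovaries, and ZD7 lay below ZD12, so that the groups overlapped. The means were 4.50 ± 2.17 and 9.44 ± 3.28 FPKM (SD, n = 3 each), with a log2 fold change of 0.94 and a standard error of 0.38 (unadjusted p = 0.0392, adjusted p = 0.999, limma). An exact two-sided permutation test of the 6 values gave p = 0.2, where 0.1 is the smallest that 3 against 3 ovaries allow. Without ZD8 the log2 fold change was 0.75 (unadjusted p = 0.0660, adjusted p = 0.919, limma), so that the unadjusted p was no longer under 0.05. MMP11 has 6 annotated transcripts, and its FPKM divides by the longest, of 7545 bases, so that its level relative to other genes depends on that choice.

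The other tested MMPs were below MMP2 and MMP14 in every ovary and overlapped between groups. MMP23B, a membrane-anchored MMP known from ovary and testis, had 41.0, 19.1 and 25.8 FPKM in SLS and 12.9, 20.9 and 23.4 FPKM in LLS. MMP19, which is known from follicle and vessel walls, had 26.5, 19.2 and 16.0 FPKM in SLS and 21.0, 21.3 and 11.6 FPKM in LLS, with its lowest value in ZD8. Of the membrane-type MMPs besides MMP14, MMP15 had 7.40 to 15.5 FPKM in 5 ovaries and 2.23 FPKM in ZD8. MMP16 was between 4.12 and 7.86 FPKM and MMP24 between 2.56 and 12.6 FPKM, with ZD8 inside both ranges. MMP28, an MMP of epithelia, was between 0.841 and 3.18 FPKM.

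The collagenases, stromelysin-1 and matrilysin of the chromosome 9 cluster did not pass the filter. MMP1, which cuts fibrillar collagen, was counted with 30, 46 and 1 reads in the SLS ovaries and with 390, 111 and 0 reads in the LLS ovaries. ZD5 and ZD7 were thus above all SLS ovaries, at 3.39 and 0.913 FPKM against at most 0.446 FPKM, while ZD8 had 0 reads, which allows up to 0.0465 FPKM. MMP1 did not pass the filter and was not tested, and it is named here after its values were seen. MMP13, the other collagenase with reads in several ovaries, reached 1.03 FPKM in ZD8 (130 reads) and 0.198 FPKM or less elsewhere. The highest values were 0.297 FPKM for MMP7, 0.155 FPKM for MMP12, 0.113 FPKM for MMP3, 0.0107 FPKM for MMP8 and 0.00843 FPKM for MMP27. MMP20, the enamel protease, had 0 reads in all 6 ovaries, which allows between 0.0145 and 0.0274 FPKM in a single ovary. Outside the cluster, MMP17 reached 1.32 FPKM and MMP25 reached 0.172 FPKM, both in ZD8.

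Among the ADAMTS genes, the proteoglycanases ADAMTS1, ADAMTS4 and ADAMTS9 and the procollagen protease ADAMTS2 had the highest means over the 6 ovaries. ADAMTS1, a versican-cutting protease that progesterone receptor is known to induce at ovulation, had 81.9, 72.4 and 36.5 FPKM in SLS and 38.3, 54.7 and 34.7 FPKM in LLS. The high values were those of ZD2 and ZD3, and ZD12 was below ZD5 and ZD7. ADAMTS4, another versican and aggrecan protease, had 29.999, 22.6 and 18.6 FPKM in SLS and 19.5, 35.8 and 0.777 FPKM in LLS. ZD8 held 96 reads of ADAMTS4 where the others held 3761 to 8342, and the lowest other ovary was 23.9 times higher in FPKM, a ratio that 73 of the 12260 tested genes exceeded. ADAMTS9, which cuts versican and aggrecan, was also lowest in ZD8, with 5.73 FPKM in ZD8 against 20.6 to 30.2 FPKM.

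The members of this group did not all follow ADAMTS4. ADAMTS5, the main aggrecan-cutting ADAMTS of cartilage, had 3.45 FPKM in ZD8 and 2.32 to 6.20 FPKM in the others. ADAMTS15 had 2.62 FPKM in ZD8 and 1.72 to 3.34 FPKM in the others. ADAMTS1 and ADAMTS5 are neighbours on the minus strand of chromosome 13, 67061 bases apart, with means over SLS of 63.6 and 4.15 FPKM. ADAMTS8 and ADAMTS15, 14449 bases apart on chromosome 9 and on opposite strands, were low, and ADAMTS8 reached 0.915 FPKM in ZD8. ADAMTS20 did not pass the filter, with 0.591, 0.895 and 0.859 FPKM in SLS and 1.63, 1.41 and 0.352 FPKM in LLS.

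The procollagen N-proteinases trim the amino end of fibrillar procollagens. ADAMTS2 had 37.3, 20.5 and 25.3 FPKM in the SLS ovaries and 17.4, 23.9 and 20.6 FPKM in the LLS ovaries. ADAMTS3, which also processes VEGFC, was between 6.41 and 11.9 FPKM with ZD8 inside the range of the others. ADAMTS14 had 2.83 to 5.84 FPKM in 5 ovaries and 0.652 FPKM in ZD8, where the lowest other ovary was 4.35 times higher. ADAMTS7 and ADAMTS12, which cut cartilage oligomeric matrix protein, were between 2.62 and 4.02 FPKM and between 5.46 and 10.5 FPKM. As with TIMP4, genes on the opposite strand overlap some of these, namely TBC1D2B for ADAMTS7 (7.20 to 31.0 FPKM) and 3 non-coding genes for ADAMTS9 (up to 23.7 FPKM, in ZD8), and their reads cannot be told apart. On the same strand, CENPK overlaps ADAMTS6 (1.32 FPKM in ZD8 and 0.999 to 4.02 FPKM in the others) and a pseudogene overlaps ADAMTS14 (0.227 FPKM in ZD8 and up to 0.789 FPKM in the others), which strand could not separate. The same holds for CEP295NL with TIMP2 (5.13 FPKM in ZD8 and 0.408 to 1.46 FPKM in the others). CACFD1, which had 0 FPKM in every ovary, overlaps ADAMTS13 on the same strand.

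Of the tested ADAMTS genes, 3 were instead highest in ZD8. ADAMTS10, which acts on microfibrils of fibrillin, had 15.3 FPKM in ZD8 against 3.36 to 7.33 FPKM in the others. ADAMTS17, a relative of ADAMTS10 linked to the same microfibrils, had 7.31 FPKM in ZD8 against 1.49 to 3.35 FPKM, and ADAMTS6 had 4.64 against 2.34 to 3.93 FPKM. These values were 2.08, 2.18 and 1.18 times the highest other ovary. The remaining ADAMTS genes did not pass the filter, with highest values of 0.777 FPKM for ADAMTS13, the protease of von Willebrand factor, 0.760 FPKM for ADAMTS19, 0.281 FPKM for ADAMTS18 and 0.754 FPKM for ADAMTS16. These values were in ZD8 except that of ADAMTS16, which was in ZD7.

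Across the 26 tested members, no difference between SLS and LLS passed the test. These were 9 MMPs, 13 ADAMTS genes and 4 TIMPs, and the 17 others did not pass the filter on low values. With the adjusted p required to be below 0.05 and the size of the log2 fold change above 1, limma called 0 members, where 0% of the 12260 tested genes were called. On reads recovered from the FPKM, DESeq2 called 0 members, where 0.163% of 12245 genes were called, and edgeR called 0 members, where 0% were. At an unadjusted p under 0.05, 1 member (MMP11) passed, against 1.76% of all tested genes. Without ZD8, 0 members passed at this p, where 709 of 11985 genes did. This count was also 0 without ZD2, ZD3 or ZD5. It was 2 without ZD12 (139 of 11992 genes), 3 without ZD7 (318 of 12135) and 2 with array weights (1252 of 12260). The fitted log2 fold change was positive for 10 members and negative for 16, with a median of -0.10 against 0.02 over all tested genes. Without ZD8 it was positive for 11 and negative for 15, with a median of -0.18 against -0.10, and 11 of the 26 members had turned in sign. In 0 members were all LLS ovaries above all SLS ovaries (1.95% of all tested genes), and in 0 members were they all below (3.17%).

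Without ZD8, 0 of the 26 members were called, against 0.167% of 11985 genes tested. The LLS ovaries ZD5 and ZD7 were then above all SLS ovaries for 0 tested members (7.44% of the 12260 genes) and below them for 1, TIMP4 (11.7%). Of the members that were not tested, MMP1 and ADAMTS20 were above and MMP7 and ADAMTS19 were below, and these are named after their values were seen. No share over all untested genes is given here, so that nothing is read from how many these are. MMP7 rests on 8, 9 and 5 reads in the SLS ovaries and 0 in ZD5 and ZD7.

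**Figure D2:**
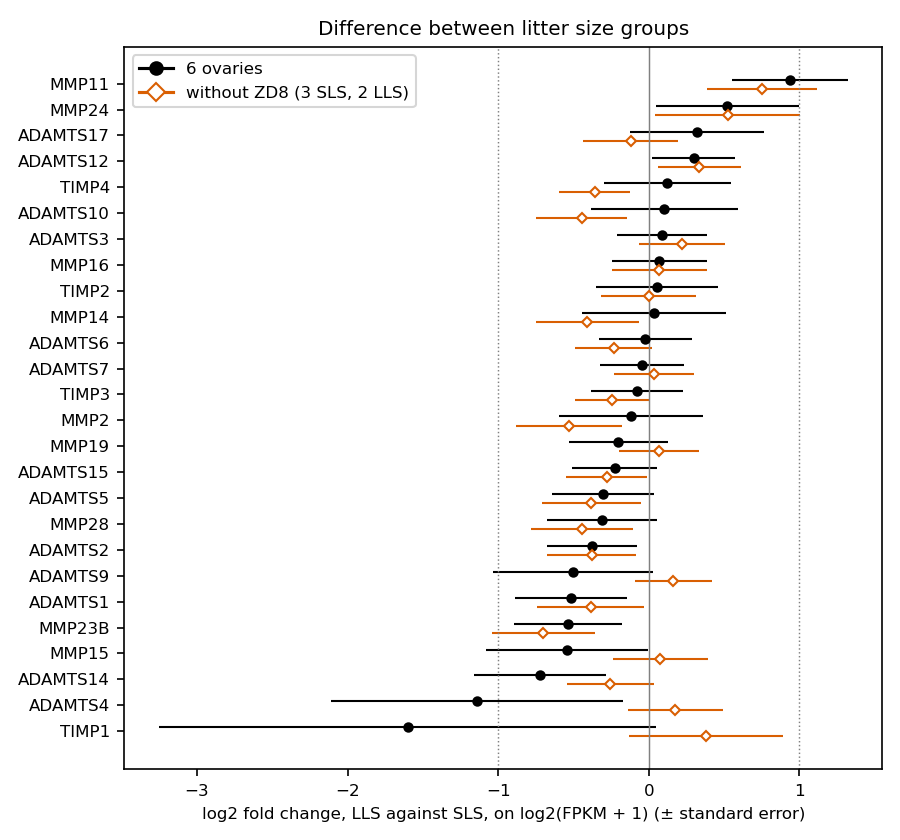
Fitted log2 fold change of the 26 tested members, LLS against SLS, with the standard error as bars, from all 6 ovaries (black circles) and without ZD8 (open orange diamonds). TIMP1 moves from -1.60 to 0.38 and TIMP4 from 0.12 to -0.36, and the dotted lines mark the log2 fold changes of -1 and 1 that a call had to exceed in size.

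ZD8 was above the other 5 ovaries for 8 tested members (MMP2, MMP11, MMP14, ADAMTS6, ADAMTS10, ADAMTS17, TIMP3 and TIMP4), where this held for 44.6% of all tested genes. ZD8 was below the others for 8 (MMP15, MMP19, ADAMTS1, ADAMTS4, ADAMTS7, ADAMTS9, ADAMTS14 and TIMP1), against 26.3% of all tested genes. The lower members include small gaps, since the lowest other ovary was 1.05 times ZD8 for both ADAMTS1 and ADAMTS7. MMP15 and ADAMTS9 stood between, at 3.32 and 3.59 times. Beside the luteal list, 4 of 5 endothelial markers were below the others in ZD8 (sum 115 FPKM against 244 to 371 FPKM). Of the 6 macrophage markers, 3 were above, but their sum in ZD8 (93.5 FPKM) lay within the range of the others (49.3 to 94.5 FPKM). Of the 5 stroma markers, DCN and PDGFRA were above the others in ZD8 and COL1A1 and COL3A1 below (sum 2907 FPKM against 3030 to 7208 FPKM). Of the 5 smooth muscle markers, MYH11 and DES were above, with a sum of 914 FPKM within the range of the others (314 to 1796 FPKM). All 3 T cell markers were above (12.6 against 1.91 to 4.46 FPKM). The 7 granulosa markers summed to 164 FPKM in ZD8 against 438 to 970 FPKM, with INHA and FST below the others and FSHR and AMH above. The part of these cell types in the levels of the members was not tested.

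**Figure D3:**
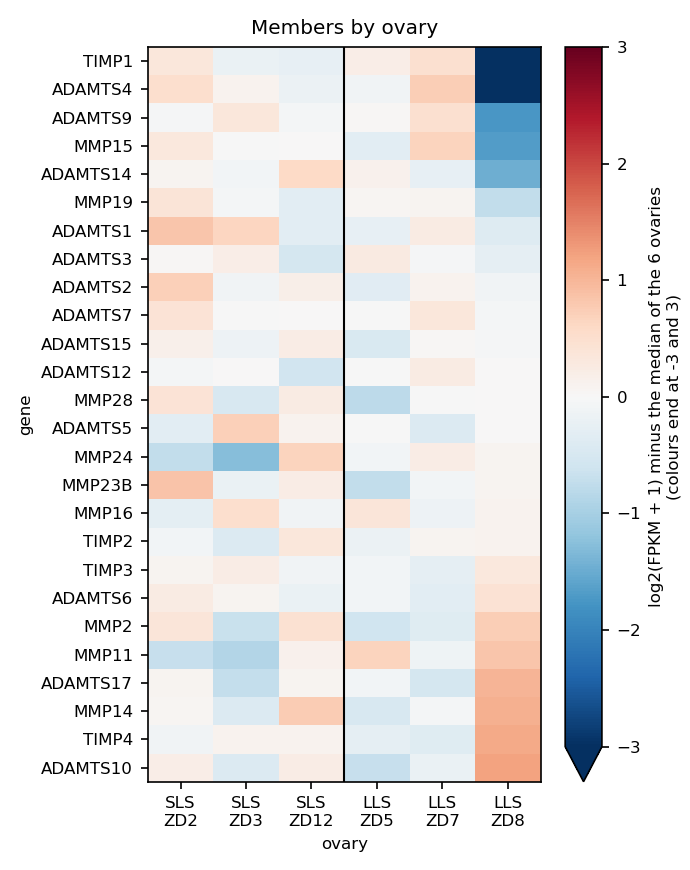
Each tested member (rows, ordered by ZD8) in each ovary (columns) as log2(FPKM + 1) minus the gene's median over the 6 ovaries, with red above and blue below. The ZD8 column runs from deep blue at TIMP1 and ADAMTS4 to red at TIMP4 and ADAMTS10, while the SLS and LLS columns beside it show no common shift.

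Summed levels of proteases and inhibitors differed mainly through TIMP1. The TIMP sum was 8208, 5718 and 5702 FPKM in the SLS ovaries and 7506, 8997 and 623 FPKM in the LLS ovaries. TIMP1 made up between 90.8% and 95.1% of this sum in 5 ovaries and 20.2% in ZD8. The MMP sum was 350, 207 and 399 FPKM in SLS and 215, 261 and 462 FPKM in LLS, and the ADAMTS sum was 219, 189 and 145 FPKM in SLS and 141, 189 and 118 FPKM in LLS. ZD8 thus had the highest MMP sum and the lowest ADAMTS sum of the 6.

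The MMP sum divided by the TIMP sum was 0.0427, 0.0362 and 0.0700 in SLS and 0.0287, 0.0290 and 0.742 in LLS. ZD5 and ZD7 were below all SLS ovaries and ZD8 was above them, with a mean log2 difference, LLS minus SLS, of 0.84 from all ovaries and -0.72 without ZD8. The ADAMTS sum divided by the TIMP sum was 0.0267, 0.0330 and 0.0254 in SLS and 0.0188, 0.0210 and 0.189 in LLS, with log2 differences of 0.58 and -0.50. TIMP1, described above as an inhibitor of MMPs, made up most of the TIMP sum except in ZD8. The ADAMTS ratio therefore does not measure inhibition of ADAMTS proteases. These ratios describe RNA and were not tested, since the members had been chosen with results of these data known.

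With TIMP1 taken out, the ovaries were much more alike. The MMP sum over the sum of TIMP2, TIMP3 and TIMP4 was 0.813, 0.555 and 0.763 in SLS and 0.544, 0.592 and 0.929 in LLS, a log2 difference of -0.07. For the ADAMTS sum these ratios were 0.508, 0.506 and 0.276 in SLS and 0.357, 0.429 and 0.237 in LLS, a log2 difference of -0.32. In both, the groups overlapped.

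**Figure D4:**
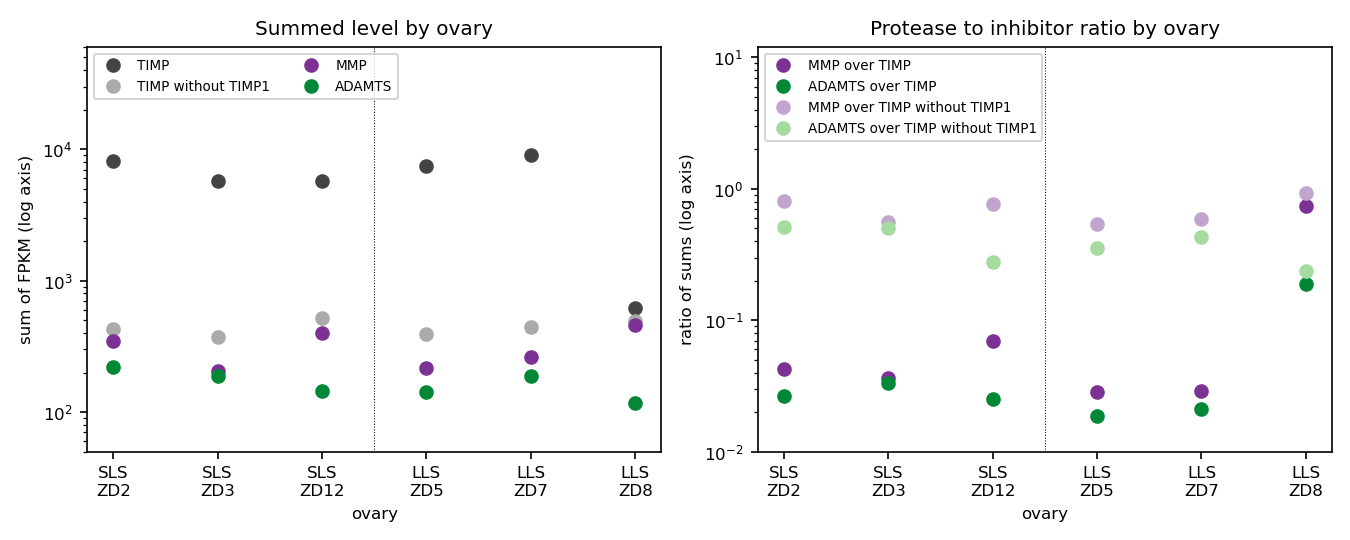
Summed FPKM of each family by ovary (left) and ratio of the protease sums to the TIMP sum with and without TIMP1 (right), both on log axes, with a dotted line between the groups. In ZD8 the TIMP sum falls to 623 FPKM and the MMP to TIMP ratio lies at 0.742, while the sums without TIMP1 stay between 373 and 523 FPKM.

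Genes that act around these enzymes were counted from 7 lists of 61 genes, of which 54 were tested. They covered the plasminogen cascade, serpins, other inhibitors and receptors, ADAMTS-like proteins, ADAMs, substrates and regulators, and limma called 0 of the 54, with 3 at an unadjusted p under 0.05 (1.76% of all tested genes). Among the 54, all LLS ovaries were above all SLS ovaries for 2, LRP1 and ADAMTSL4 (1.95% of all tested genes), and below them for 4, PLAT, PCSK6, SERPINE2 and PTGS2 (3.17%). LRP1, the endocytic receptor that clears MMP and TIMP complexes, had 256, 146 and 172 FPKM in SLS and 291, 337 and 339 FPKM in LLS. PLAT, the tissue-type plasminogen activator, had 71.4, 65.8 and 79.4 FPKM in SLS and 42.3, 59.7 and 29.2 FPKM in LLS. SERPINE2, an inhibitor of plasminogen activators and thrombin, had 329, 326 and 535 FPKM in SLS and 184, 215 and 148 FPKM in LLS. The adjusted p of each of these was 0.999 (limma).

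The other 3 of the 6 pathway genes without overlap had lower levels. ADAMTSL4, which lacks a protease domain, had 4.16, 1.86 and 4.16 FPKM in SLS and 9.72, 8.39 and 4.76 FPKM in LLS. PCSK6, a proprotein convertase, had 6.49, 5.53 and 5.50 FPKM in SLS and 2.56, 3.81 and 4.19 FPKM in LLS. PTGS2, which makes prostaglandins, had 1.44, 1.81 and 1.21 FPKM in SLS and 0.870, 0.609 and 0.343 FPKM in LLS. PTGS2 passed the filter through the SLS ovaries alone, so that its place among the tested genes depends on the difference counted. The adjusted p of each was 0.999 (limma). SERPINB2, a further plasminogen activator inhibitor, did not pass the filter and was not tested, with 0.570, 1.30 and 0.723 FPKM in SLS and 0.133, 0.385 and 0 FPKM in LLS.

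The 6 tested genes were named because their groups do not overlap, so leaving out ZD8 could not turn their sign. Only the size of the change could differ. The log2 fold changes were 0.79 from all ovaries and 0.75 without ZD8 for LRP1, and 0.98 and 1.24 for ADAMTSL4. The corresponding values were -0.77 and -0.51 for PLAT and -1.09 and -0.95 for SERPINE2. For PCSK6 they were -0.61 and -0.72, and for PTGS2 -0.64 and -0.51. The smallest adjusted p of the 6 without ZD8 was 0.253, for ADAMTSL4 (limma).

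In ZD8, 10 of the 54 tested genes of these lists were above and 31 were below the other ovaries, where 44.6% and 26.3% of all tested genes were. PLAU, the urokinase that activates plasminogen, had 3.59 FPKM in ZD8 against 26.2 to 46.4 FPKM. VCAN, which encodes the ADAMTS substrate versican, had 24.0 FPKM in ZD8 against 111 to 367 FPKM, and 11 of the 14 tested substrates were below the others there. RECK, a membrane-anchored inhibitor of MMP2, MMP9 and MMP14, was instead highest in ZD8, at 21.4 FPKM against 8.43 to 12.2 FPKM.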

How the data were processed

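Gene expression was measured in 3 SLS and 3 LLS ovaries, grouped by the sample labels. The authors trimmed the reads and deposited FPKM per gene, and miRNA reads scaled to the library total (RPM) for the same ovaries. The submitters' processing notes name HISAT2, BWA and Sscrofa11.1, and the counting program is not given in the sources used here. FPKM times the longest annotated RefSeq transcript gave whole reads (within 0.001 reads) for 99.6% of genes above 0, hence the depths, and 29850 of the 29884 names were found in the annotation.

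Genes with at least 1 FPKM in at least 3 libraries (12260) were fitted with limma 3.58.1 in R 4.3.3 on log2(FPKM + 1) with a trended variance, and called where the Benjamini-Hochberg adjusted p over all tested genes was below 0.05 and the size of the log2 fold change above 1. The study's own tool is a count test, so limma replaced it as the main test, and DESeq2 1.42.0 and edgeR 4.0.16 were run on recovered reads as alternatives. The other alternatives were the pseudocount, the filter, TPM, quantile normalization, median centring, array weights, the largest members left out of the sums, and each ovary left out in turn.

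Every member is accounted for. Test statistics are printed for the 4 TIMPs and for some other members. These are members whose groups do not overlap, whose unadjusted p is under 0.05 in the main fit, or which are called without ZD8. Of the pathway lists, the genes whose groups do not overlap are named, and PLAU, VCAN and RECK were chosen after their values were seen. The members, the 7 pathway lists and the cell type marker lists were chosen with earlier results of these data known. Of 43 members, 17 overlap another annotated gene, 4 of them on the same strand.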

Additional observations from a re-analysis of the deposited data

How the results depend on the processing

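No member was called under any of the 16 alternatives, where the smallest adjusted p of a member was 0.372, for MMP23B with limma's array weights. Over all genes, with adjusted p, 13 were called with array weights, 20 with DESeq2 and 20 without ZD8, against 0 otherwise, and 99 passed with an unadjusted p under 0.05 and the same fold change. The log2 fold change of MMP11 kept its sign in all 14 alternatives, from 0.60 to 1.24. The 4 inhibitors did not. With array weights TIMP1 was at 0.21, TIMP2 at -0.13 and TIMP4 at -0.31, and with quantile normalization TIMP3 was at 0.0924. With each ovary left out in turn, TIMP1 ranged from -2.66 to 0.38, TIMP2 from -0.13 to 0.25, TIMP3 from -0.24 to 0.0501 and TIMP4 from -0.36 to 0.39. TIMP1 and TIMP4 turned only without ZD8. TIMP2 turned without ZD3 or ZD8 (-0.00072), and TIMP3 without ZD3 (0.0025) or ZD7 (0.0501). The log2 ratio of MMPs to TIMPs ranged from -0.72 to 1.62 and that of ADAMTS genes to TIMPs from -0.50 to 1.16, both negative without ZD8 and, at -0.07 and -0.32, without TIMP1. The cause was not tested. No paired analysis was possible because each ovary came from a different sow and the labels give no numbers that pair them. With 3 ovaries a group and ZD8 apart from the rest, differences of less than the standard errors given are not resolved. Neither are larger ones that did not pass the test. MMP11, at 0.94 with a standard error of 0.38, did not pass it (adjusted p = 0.999, limma). Depth limits MMP8, MMP20 and MMP27 most, with at most 2 reads in an ovary. MMP3, MMP7 and MMP12 also rest on few reads, with at most 8, 12 and 9 in an ovary.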

Other observations

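The small RNA table, whose columns carry the names of the same ovaries, gave values for miRNAs whose seeds (bases 2 to 8, in capitals) match the 3′ UTR of a member or of RECK. These sequences are shown because miR-21 is known to target TIMP3 and RECK, and because miR-221 and miR-222 share a seed.
miR-21-5p: tAGCTTATcagactgatgttga
miR-221-3p: aGCTACATtgtctgctgggttt
miR-222: aGCTACATctggctactgggtctc
TIMP3, match to miR-21-5p: catgtggggacATAAGCTaatttttttaca
RECK, match to miR-21-5p: cacagtttgaaATAAGCTattcagtgtaat
TIMP3, match to miR-221-3p and miR-222: taaagtcatttATGTAGCtgagacacttct

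The matches (capitals) lie at chr5:12188442-12188448 on the minus strand, chr1:236898013-236898019 on the plus strand and chr5:12187058-12187064 on the minus strand of Sscrofa11.1. The 3′ UTR of TIMP3 held 2 matches to the miR-21 seed, where 16.8% of 3′ UTRs of like length hold any, and RECK held 1 (7.4%). For the shared seed of miR-221 and miR-222 TIMP3 held 1 match (16.0%). The level of miR-21-5p was 307697, 197650 and 85208 RPM in ZD2, ZD3 and ZD12 and 251825, 314092 and 33686 RPM in ZD5, ZD7 and ZD8. It was lowest in ZD8, where TIMP3 (123 FPKM) and RECK (21.4 FPKM) were highest, and next lowest in ZD12, where TIMP3 was at 91.9 FPKM, above ZD7 alone. The level of miR-222 was 74.4 RPM in ZD8 and between 244 and 408 RPM in the others. TIMP3 also held 2 matches to the seed of miR-181b (36.0%) and MMP2 held 1 to that of miR-29b (8.2%). In ZD8 these miRNAs had 1111 and 351 RPM, against 289 to 1471 and 179 to 373 RPM in the others, while TIMP3 and MMP2 were highest there. A match of a seed is a description of the bases, and an effect of these miRNAs was not tested.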
